A study of Mus musculus with 2 samples.

Results

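Among leukocytes sorted from mouse melanomas, 55 of 10050 annotated cells carry the authors' name skin resident Mø (Mø stands for macrophage), one of 26 names in the deposited annotation. They were taken by that name alone, 47 of 4665 annotated cells in the APOE2 library and 8 of 5385 in the APOE4 library. The mice carried human APOE2 or human APOE4 knocked in, and both groups received YUMM1.7 melanoma cells in Matrigel under the flank skin. Tumours were collected on day 19, sorted CD45+ DAPI- cells of 6 mice per genotype were pooled, and each pool gave 1 droplet library that counts unique molecules (UMIs) near the 3' end of transcripts. With 1 library per genotype, a difference between genotypes and a difference between libraries cannot be told apart, and every interval in square brackets (95%) covers counting error only. The labels give no strain, age or sex of the mice.

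Resident macrophages of the skin are long-lived phagocytes of the dermis, known by scavenger receptors and lectins such as Lyve1, Folr2, Cd163 and Mrc1. Osteoclasts are another descendant of the monocyte and macrophage lineage: under the cytokines CSF1 and RANKL they switch on the transcription factor Nfatc1, fuse, pack their cytoplasm with mitochondria, pump acid through a vacuolar proton ATPase and secrete proteases that dissolve bone matrix. The name of the cells was checked against marker lists for both skin macrophages and other tissue cells, and the data went against it. Skin macrophage markers were low, and the 2 genes with the highest levels, cathepsin K (Ctsk) and tartrate-resistant acid phosphatase (Acp5), are best known from osteoclasts. Of the 25 leading genes 7 are on a list of 32 osteoclast genes. That list was written after the leading genes had been seen, so this count supports nothing. The cells are therefore called here by the authors' label or by their leading genes, and no other cell type name is given to them.

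Ctsk encodes a cysteine protease that cuts collagen, and Acp5 a phosphatase of secretory lysosomes. Levels are CPM, a gene's UMIs per 1000000 UMIs of the summed cells. Ctsk was at 13777 CPM in the APOE2 cells of the label and 9209.5 CPM in its APOE4 cells, against 14.4 and 4.41 CPM in all other annotated cells of the same libraries. Over both libraries this was 13011 CPM [12808, 13217] against 9.53 CPM, 1366-fold higher. Acp5 was at 12019 and 6213 CPM, and at 11046 CPM [10859, 11236] over both against 54.2 CPM in other cells, 204-fold higher. Together these 2 genes made up 2.41% of all UMIs of the label. Their nearest other names were far below: stromal cells at 119 CPM of Ctsk, a protease that fibroblasts also make, and Mø cluster 1 at 135 CPM of Acp5. Because the authors' clustering used expression, a gene of these cells against the rest is a description and carries no test.

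The DNA just before the start sites of Ctsk and Acp5 is shown because their levels went together across cells of the label. Oscar, whose window is shown as well, was not among the pairs correlated. Each line is the 250 bases before a RefSeq start site, on the gene's strand (GRCm38.p6), in lower case. Matches to 3 motifs, searched on both strands, are in capitals: GGAAA (the NFAT core), TCANNTGA and TGANTCA (AP-1). TCANNTGA is a loose pattern that includes the M-box read by MITF and its relatives. All its matches are called M-box matches here, whether or not MITF reads them. Ctsk lies on chr3:95499256-95509362 (plus strand) and Acp5 on chr9:22126727-22135711 (minus strand), and for Acp5 the one of its RefSeq start sites whose window holds an M-box match is shown. Oscar, on chr7:3609813-3616157 (minus strand), is given because it has the most NFAT core matches among the 7 of the first 10 leading genes that are in the RefSeq table. The windows shown were thus chosen for their matches.

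Ctsk, chr3:95498960-95499209: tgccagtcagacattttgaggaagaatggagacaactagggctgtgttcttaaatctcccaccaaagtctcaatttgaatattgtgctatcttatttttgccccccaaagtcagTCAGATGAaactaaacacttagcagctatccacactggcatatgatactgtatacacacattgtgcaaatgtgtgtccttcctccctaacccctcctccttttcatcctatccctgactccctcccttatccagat
Acp5, chr9:22130599-22130848: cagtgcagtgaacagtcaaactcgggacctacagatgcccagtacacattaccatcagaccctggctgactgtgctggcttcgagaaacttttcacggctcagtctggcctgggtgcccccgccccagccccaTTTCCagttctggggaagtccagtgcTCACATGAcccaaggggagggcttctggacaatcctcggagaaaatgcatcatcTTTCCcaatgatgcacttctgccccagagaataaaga
Oscar, chr7:3616158-3616407: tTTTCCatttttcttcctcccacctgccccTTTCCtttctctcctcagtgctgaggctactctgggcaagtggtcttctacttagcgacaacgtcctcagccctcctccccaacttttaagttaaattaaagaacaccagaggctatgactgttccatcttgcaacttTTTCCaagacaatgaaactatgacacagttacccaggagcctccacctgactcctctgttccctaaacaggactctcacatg

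The Ctsk window holds 1 M-box match, TCAGATGA, and no GGAAA on either strand. The Acp5 window holds 1 M-box match, TCACATGA, and 2 matches to the NFAT core, and the windows at its other 2 start sites hold 1 NFAT core match each. In the Oscar window there are 3 NFAT core matches, and none of the 3 windows has an AP-1 match. Among all 32536 RefSeq windows of the same length, 55.7% hold GGAAA, 7.04% TCANNTGA and 6.73% TGANTCA, so the NFAT core is common among promoters, and a match is not a binding site. Over the 9 windows of the 7 genes, 5 genes have an NFAT core match, 3 (Ctsk, Acp5 and Akap6) an M-box match and 0 an AP-1 match. Of all 25 leading genes, 15 are in the RefSeq table.

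The 25 genes that stood farthest above all other cells were ranked by the lower bound of their ratio, with 20 label UMIs as the minimum. All 25 were highest in this label of the 26, and in each library separately all 25 were also at least 4-fold above the pooled other cells. After Ctsk came Slc9b2, a sodium and proton exchanger, at 747 CPM [699, 798] against 1.15, with Monocytic DCs the next name at 6.10 CPM. Pate4 had 25 UMIs in the label and 0 in all other annotated cells. With 3 UMIs as the floor over those cells it was 512-fold higher, and the lower bound of its ratio was 387-fold. Atp6v0d2, a subunit of the vacuolar proton ATPase that is also needed for cell fusion, was at 1173 CPM [1112, 1235] against 3.01. Oscar, a collagen-binding receptor that signals through the Fcer1g adaptor, was at 55.8 CPM [43.2, 70.9] against 0.0678, or 67 UMIs against 5. Mmp9, a gelatinase, was at 6907 CPM [6759, 7057], and the next name, the neutrophil-like G-MDSC 1, had 1684 CPM.

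**Figure D1:**
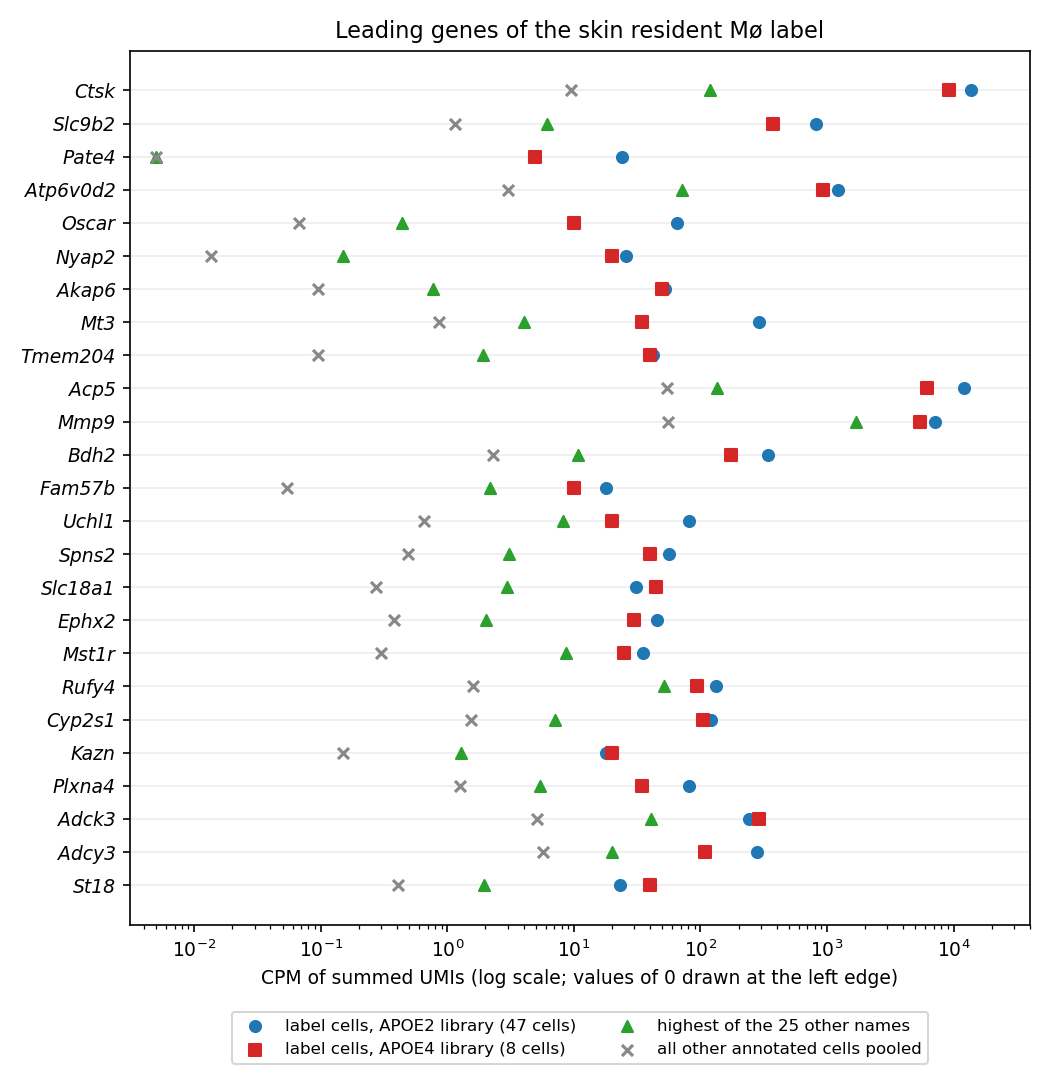
CPM of the 25 leading genes (rows) in the label's 47 APOE2 and 8 APOE4 cells, in the highest of the 25 other names and in all other annotated cells pooled, on a log axis with values of 0 at the left edge. For every gene both libraries of the label lie to the right of the highest other name (Ctsk: 13777 and 9209.5 CPM against 119).

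The other leading genes spanned several functions. Mt3, a metallothionein best known from brain, was at 247 CPM [220.0, 277] against 0.854. Bdh2, a dehydrogenase of iron and ketone metabolism, was at 315 CPM, and its gene ends 3273 bases before Slc9b2 on the same strand of chromosome 3. Adcy3, an adenylate cyclase, was at 252 CPM against 5.66, Adck3, a kinase-like protein of coenzyme Q synthesis, at 251 CPM against 5.12, and Rufy4, an adaptor of lysosome positioning, at 127 CPM against 1.599. Nyap2, Akap6, Tmem204, Fam57b, Uchl1, Spns2, Slc18a1, Ephx2, Mst1r, Cyp2s1, Kazn, Plxna4 and St18 lay between 16.7 CPM (Fam57b) and 118 CPM (Cyp2s1). Slc18a1, with 40 UMIs, overlaps the proton pump gene Atp6v1b2 on the opposite strand, at the 5' ends of both genes. Whether any UMIs of Slc18a1 belong to Atp6v1b2 was not tested.

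Of 3114 genes with a mean of at least 50 CPM over the label and the other cells, 131 (4.21%) were at least 4-fold higher in the label and 345 (11.1%) at least 4-fold lower, and the median log2 ratio of all tested genes was -0.05. Of the 131, 92 were at least 4-fold higher within each library, and of the 345, 284 were at least 4-fold lower within each. With every cell thinned to 1500 UMIs, 204 genes were at least 4-fold higher, of which 112 were among the 131.

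Genes known from osteoclasts were then followed by role, on a list of 32 written after the leading genes had been seen, so its counts describe the label and support nothing. The list summed to 40428 CPM [40069, 40789] in the label against 3046 CPM in other cells, and the next name, M-MDSC 2, had 7605 CPM. Of its 32 members 23 passed the mean of 50 CPM, 19 of these were at least 4-fold higher (against 4.21% of all tested genes) and 0 at least 4-fold lower, and 23 of the 32 were highest in this label. Of all 3114 tested genes, 504 (16.2%) were highest in this label of the 26, which is the background for such counts here and further on. The median log2 ratio over the 31 members at 5 CPM or more on either side was 2.92.

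Among receptors, Csf1r, which binds CSF1, was at 656 CPM [611, 704], level with Mø cluster 1 at 633 CPM. Tnfrsf11a, the receptor RANK, was at 217 CPM [192, 245] against 28.7, and migratory DCs were next at 94.9 CPM. Its ligand Tnfsf11 had 0 UMIs in the label, and was highest in CD4+ T cells at 74.7 CPM. Csf1 had 1 UMI in the label and was highest in basophils at 2359 CPM. The calcitonin receptor gene Calcr had 2 UMIs in the label and Siglec15, an immunoglobulin-like receptor of osteoclast fusion, 11 UMIs, and neither had any UMI in another annotated cell. The signalling adaptor Traf6, at 20.8 CPM against 19.9, was about level.

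Of the transcription factors, Nfatc1 was at 668 CPM [623, 716] against 67.2, with NK cluster 2 next at 185 CPM. Jdp2, an AP-1 family member, was at 862 CPM against 58.8, Prdm1, a repressor, at 279 CPM against 38.1, and Mitf at 121 CPM against 17.6. Tfe3, a relative of Mitf, was lower than in other cells, at 22.5 CPM against 49.0, and Fos was level, at 1316 CPM against 1375. The coactivator of mitochondrial growth Ppargc1b was at 130 CPM [110, 152] against 5.53. The fusion proteins Ocstamp and Dcstamp were at 279 and 158 CPM against 10.6 and 16.1, and for both cDC 2 was the next name, at 29.6 and 73.4 CPM.

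Among genes of attachment and signalling, the integrin chain Itgav was at 328 CPM, below CD4+ T cells at 493, and its partner Itgb3 was at 49.97 CPM against 16.4, with rank 5 among the names. The kinase Src was at 104 CPM [86.7, 124] against 7.601. The matrix protease Mmp14 was at 548 CPM against 86.0, and stromal cells were next at 396 CPM. Cd44 was lower than in other cells, at 243 CPM against 484. Carbonic anhydrase 2 (Car2), which makes the protons for acid secretion, was at 64.1 CPM against 33.4, also with rank 5.

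Genes of the proton pump were higher as a sum, though not in every member: 14 were above other cells, 8 below, and 7 of the 25 had 0 UMIs in the label. The 25 V-ATPase genes named by their symbols summed to 11099 CPM [10912, 11289] in the label, against 2407 CPM in other cells and 3403 CPM in the next name, M-MDSC 1. Of the 14 that passed the mean of 50 CPM, 8 were at least 4-fold higher (4.21% of all tested genes were) and 12 of the 25 were highest in this label. Apart from Atp6v0d2, the largest ratio was that of Atp6v1b2, a subunit of the catalytic head, at 1143 CPM against 107, then Atp6v1a, its partner, at 724 CPM against 103. The ubiquitous form of the d subunit, Atp6v0d1, was level, at 105 CPM against 106, so that of the d subunits only Atp6v0d2 was higher. Of the a subunits, Atp6v0a1 was at 3.33 CPM and Atp6v0a2 at 19.2 CPM, both below other cells (25.2 and 52.8 CPM), while Tcirg1, the form used at the bone-facing membrane, was at 373 CPM [339, 409] against 75.8. The chloride channel Clcn7, its partner Ostm1 and the sorting nexin Snx10, which serve the same membrane, were at 80.0, 56.6 and 742 CPM against 22.4, 33.7 and 95.7.

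Genes of the mitochondrial respiratory chain were high as well. A list of 18 nuclear genes summed to 19450.4 CPM [19202, 19702], 2.93-fold [2.89, 2.96] that of other cells (6650 CPM), and the next name, Ki67+ CD8+ T cells, had 8298 CPM. All 18 were above other cells and highest in this label (16.2% of all tested genes were), and 5 were at least 4-fold higher (4.21% of all tested genes were), among them Sdhc of complex II (370 CPM against 72.3) and Uqcr11 of complex III (788 against 170). Per library the list stood at 19428 CPM in APOE2 and 19562 CPM in APOE4, against 6770 and 6522 CPM in other cells of those libraries. Of 101 respiratory chain and ATP synthase genes taken by symbol, 81 were highest in this label. The 13 genes of the mitochondrial genome summed to 73546 CPM against 38447 CPM, 1.91-fold, with B cells next at 67925 CPM. The label also had the highest median percent of mitochondrial UMIs of the 26 names, 7.42%, and its part in the level of the nuclear genes was not tested. Among cells under 5% mitochondrial UMIs the nuclear list was 1.21 higher than in other cells on the log2 scale, from 5 APOE2 cells of the label, of which 2 had 853 and 1395 UMIs in all and 2 had 0 and 1 UMIs of Ctsk.

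The markers that the name calls for were low. The list of 16 macrophage genes summed to 3515 CPM [3410, 3623] in the label, against 30853 CPM in Mø cluster 1, 30019 CPM in Mø cluster 2 and 14112 CPM in all other cells. Of its 15 tested members 10 were at least 4-fold lower and 1, Cd68, at least 4-fold higher, beside 11.1% and 4.21% of all tested genes. The median log2 ratio over the list was -2.64. Cd68, a lysosomal protein, was at 1104 CPM against 245, and with Csf1r and Trem2, a lipid receptor (448 CPM against 144), it was one of the 3 members above other cells. The complement genes C1qa, C1qb and C1qc were at 152, 114 and 109 CPM against 5058, 4926 and 2856 CPM in Mø cluster 1. Adgre1, which encodes the F4/80 antigen, was at 19.99 CPM, and Mrc1, the mannose receptor, at 19.2 CPM against 1209.7 CPM in Mø cluster 2. Lysozyme 2 (Lyz2) was at 117 CPM against 5309 CPM.

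The 13 skin-resident macrophage genes summed to 102 CPM [84.4, 121], against 3717 CPM in Mø cluster 2, 2068 CPM in Mø cluster 1 and 1024 CPM in all other cells. All 13 were below other cells, and 3 of them, Cd163, Timd4 and Cd209f, had 0 UMIs in the label. Lyve1 had 1 UMI, or 0.833 CPM, against 110 CPM in Mø cluster 2. The highest members were the selenoprotein gene Sepp1, at 52.5 CPM against 1011 CPM in Mø cluster 2, and the folate receptor gene Folr2, at 30.8 CPM against 384 CPM. Both larger macrophage names therefore held more of these genes than the label named for the skin. Monocyte genes summed to 55.0 CPM against 4003 CPM, the lowest of the 26 names, and MHC class II genes, which present antigen, to 2067 CPM against 24200 CPM.

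**Figure D2:**
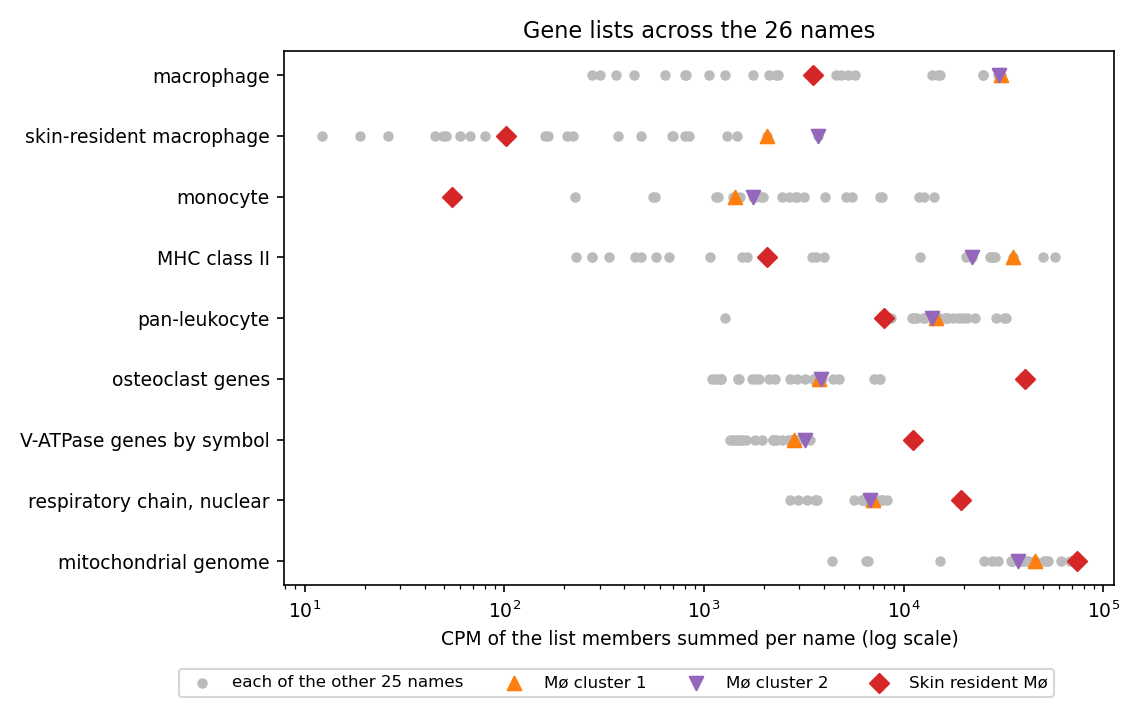
CPM of the members of 9 gene lists summed per name, on a log axis, for the 25 other names (grey), Mø clusters 1 and 2 and the skin resident Mø label. The label lies below both Mø clusters on the first 5 lists (macrophage: 3515 CPM against 30853 and 30019) and is the highest of the 26 on the last 4 (respiratory chain: 19450.4 CPM).

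Leukocyte genes were lower as a sum, and unequal among themselves. Ptprc, which encodes the CD45 used in the sort, had a UMI in 51 of 55 cells at a median depth of 20825 UMIs, and in 37.7% of cells at 1500 UMIs. At 1500 UMIs the share was 60.2% in Mø cluster 1 and 8.55% in stromal cells (21.2% before thinning), and the level was 183 CPM in the label against 967 CPM in other cells. Tyrobp, the adaptor through which Trem2 signals, was in 55 of 55 cells at 3163 CPM against 2046. It was in 96.2% of cells at 1500 UMIs, against 12.5% of stromal cells and 3.95% of CD8+ T cells. The 15 pan-leukocyte genes summed to 7963 CPM against 14950.2 CPM, and among the names only stromal cells were lower (1275 CPM). Coro1a, an actin regulator of leukocytes, was at 60.8 CPM against 1034, and Srgn, a granule proteoglycan, at 47.5 CPM against 2269.

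Most markers of other cell types were low. Fibroblast genes summed to 4.16 CPM with 12 of 15 at 0, keratinocyte genes to 12.5 CPM with 16 of 18 at 0, and NK cell, T cell and B cell genes to 4.16, 38.3 and 11.7 CPM. Dendritic cell genes came to 27.5 CPM with 5 of 12 at 0, and mast cell and basophil genes to 2.50 CPM with 8 of 10 at 0. The neutrophil list reached 6955 CPM, of which Mmp9 alone gave 6907, and its other 10 members were all below other cells, such as S100a8 at 14.99 CPM against 1521. The melanocyte list summed to 153 CPM, of which Mitf gave 121, and was above other cells at 37.7 CPM. Of its 16 members 11 were at 0, among them Mlana, Pmel, Tyr, Tyrp1, Dct and Sox10. Mø cluster 2 had the highest sum of any name, 172 CPM, so no name here served as a reference for tumour RNA. Whether the label held tumour RNA was not tested. The 10 genes of bone-forming cells, a list also written after the leading genes were seen, summed to 5.00 CPM with 9 at 0.

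The remaining lists of cell types were below other cells, apart from pericyte and skeletal muscle genes. The Langerhans cell list came to 1539 CPM against 14480 in other cells, most of it from the MHC class II genes Cd74 (1315 CPM) and H2-Aa (206.5 CPM). The list of neural crest and dedifferentiated melanoma genes came to 161 CPM against 396, with 13 of 17 at 0, and Axl, a receptor kinase, and Aqp1 gave 99.1 and 45.8 CPM of it. The platelet list came to 90.8 CPM against 534.5 with 4 of 6 at 0, of which the chemokine Pf4 gave 88.3, and the Schwann cell list to 38.3 CPM against 159 with 6 of 9 at 0. Pericyte and skeletal muscle genes were above other cells, at 23.3 CPM against 10.3 with 7 of 9 at 0, and at 17.5 CPM against 5.54 with 4 of 7 at 0, the highest of the 26 names for muscle. Endothelial genes came to 5.83 CPM against 65.1, and erythroid and adipocyte genes had 0 UMIs. The part of any of these cells in the label's profile was not tested.

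Mt3 and Sbsn, the 2 genes given with the label, did not mark all of its cells. Mt3 had a UMI in 28 of 55 cells (50.9% [37.1, 64.7]) and Sbsn, which encodes suprabasin, a protein best known from the epidermis, in 29 of 55. Both were found in 13 cells and neither in 11. One cell held 99 of the 297 Mt3 UMIs. At 1500 UMIs per cell the shares were 22.6% for Mt3 and 11.3% for Sbsn, against at most 0.769% and 3.29% in any other name. Ctsk and Acp5 were in 53 and 55 of the 55 cells, and at 1500 UMIs in 90.6% and 100% of the 53 cells deep enough. CD8+ T cells, used here as the background for free Ctsk RNA, had a Ctsk UMI in 0.339% of cells (0.172% at 1500 UMIs). Their median depth was 3472 UMIs, against 20825 in the label. An Acp5 UMI was in 18.6% of CD8+ T cells (9.43% at 1500 UMIs) and in 28.6% of B cells. Acp5 differed among these names, at 58.4 CPM in CD8+ T cells and 87.8 CPM in B cells. In NK cluster 1 it was at 11.1 CPM and in cDC 1 at 6.75 CPM. The CD8+ T cell share is therefore not taken as a background for free Acp5 RNA. Of the other metallothioneins, Mt1 was at 633 CPM against 329 and Mt2 at 24.98 CPM against 36.5.

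The genes farthest below other cells included cytokines, chemokines and granule proteins. Of genes at 200 CPM or more in other cells, Gpr171, a G protein-coupled receptor, and Cxcl9, a chemokine that draws T cells, had 0 UMIs in the label, at 209 and 217 CPM elsewhere. Il1b, which encodes interleukin 1 beta, was at 38.3 CPM against 3347, 87.4-fold lower, and the calcium-binding S100a9 at 7.50 CPM against 2327, 310.5-fold lower. The monocyte genes Ly6c2 and Plac8 were 88.0-fold and 141-fold lower. Atf3, Camp, Gzma, Wfdc17, Ccl4, Mgp, Lsp1, Ifitm1 and S100a8 completed the 15, and each had at most 18 UMIs in the 55 cells. Over a list of 25 cytokines and chemokines the label had 1346 CPM against 9094, with 8 of 12 tested members at least 4-fold lower, beside 11.1% of all tested genes. The growth factors Pdgfa and Pdgfb went the other way, at 98.3 and 89.9 CPM against 15.8 and 16.8, the highest of the 26 names.

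The 10 most abundant genes outside the ribosomal and mitochondrial ones were Ctsk, Acp5, Malat1, Fth1, Vim, Tmsb4x, Eef1a1, Tpt1, Mmp9 and Ftl1. Of these, vimentin (Vim), an intermediate filament, was 3.57-fold above other cells, at 8215 CPM, and thymosin beta 4 (Tmsb4x), which binds actin monomers, was lower, at 8199 CPM against 21583. Lpl, which hydrolyses the triglycerides of lipoproteins, was at 786 CPM [737, 838] against 48.2 CPM, with Mø cluster 2 next at 326. Mouse Apoe, which the knock-in replaces with the human gene, was at 26.7 CPM against 126. Slc37a2, a sugar phosphate transporter of secretory lysosomes, was at 465 CPM against 17.9, and Mø cluster 1 was next at 39.6 CPM.

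The cells differed among themselves in the leading genes. Ctsk ranged from 0 to 23876 CPM over the 47 APOE2 cells (median 13973) and from 158 to 20058 CPM over the 8 APOE4 cells (median 7679). Acp5 ranged from 392 to 28474 CPM (median 12422) and from 515 to 15784 CPM (median 5578), so the cells of the 2 libraries overlapped for both genes. Over the 50 cells with at least 5 UMIs of Ctsk, the log levels of Ctsk and Acp5 had a Pearson correlation of 0.842. For Acp5 and Slc9b2 it was 0.807. For Ctsk it was 0.758 with Mmp9, 0.382 with Mt3 and 0.130 with Sbsn. These are correlations over cells of 2 libraries that share depth and library, and are given as a description.

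**Figure D3:**
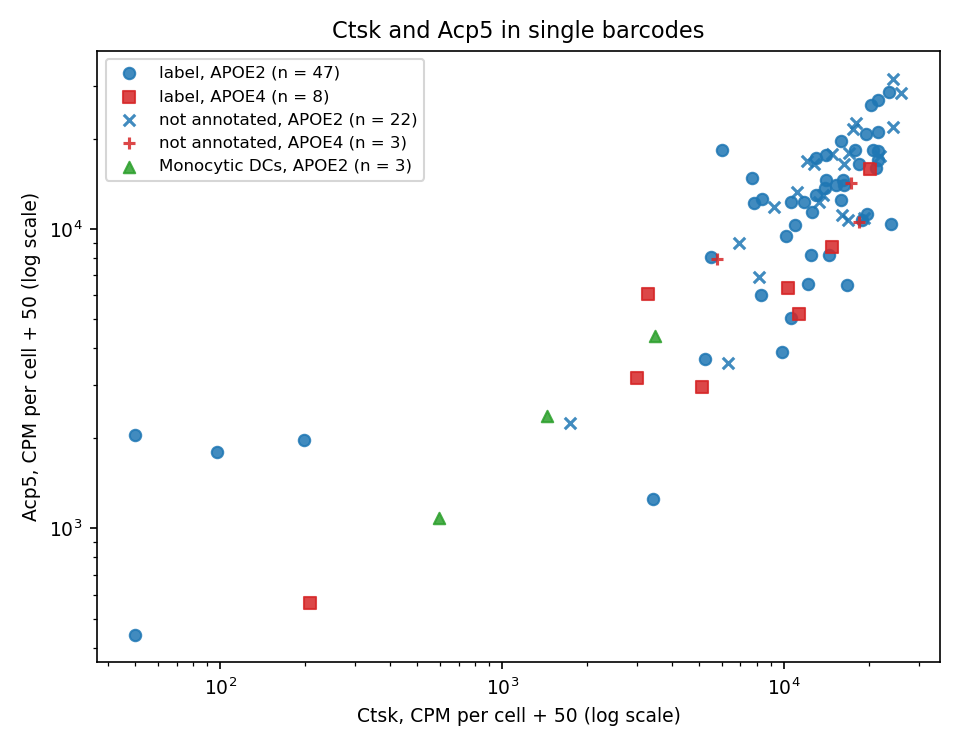
CPM of Ctsk (horizontal) and Acp5 (vertical) per barcode, 50 added, both on log axes: the label's cells by library, 25 barcodes outside the annotation and 3 cells named Monocytic DCs with at least 10 UMIs of each gene. Most cells lie at the upper right, where most barcodes outside the annotation also lie, and 5 cells of the label with under 5 UMIs of Ctsk lie at the left.

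A group of 5 cells of the label, 4 APOE2 and 1 APOE4, had under 5 UMIs of Ctsk despite 12750 to 25266 UMIs in all, with 5 to 37 UMIs of Acp5. Their summed Acp5 was 1278 CPM, against 11830.2 CPM in the other 50 cells, and Mmp9 448 against 7426 CPM. Nfatc1 was closer, at 572 and 676 CPM, and so were Jdp2, at 740 and 872 CPM, and Tnfrsf11a, at 213 and 218 CPM. Dcstamp had 0 UMIs in these 5 cells, against 171 CPM in the others. A list of 20 proliferation genes stood at 3754 CPM in them and 1746 CPM in the other 50. These cells were set apart by Ctsk itself, so low levels of genes that follow it across cells are a description.

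Another 4 cells, 3 APOE2 and 1 APOE4, held 21 to 62 UMIs of C1qa while no other cell of the label had more than 1. Their macrophage list summed to 13024 CPM, against 3515 CPM over the whole label, yet they also had 42 to 251 UMIs of Ctsk and a V-ATPase sum of 6352 CPM. Their depth, with a median of 19553 UMIs, was not above that of the label. Whether each such barcode held RNA of 2 cells was not tested. The log2 ratio of the macrophage list to other cells was -2.31 without them and -2.005 with them.

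Depth and the limits of the annotation bear on how many such cells were named. The label had the highest median depth of the 26 names, 20825 UMIs, and the second highest median number of genes, 4277, but at 1500 UMIs per cell its median of 808 genes ranked 17 of 26. Its cells reached up to 5899 genes and 9.96% mitochondrial UMIs, and annotated cells in this deposit stay under 6000 genes and 10% mitochondrial UMIs. Outside the annotation, 25 barcodes had at least 10 UMIs of both Ctsk and Acp5, 22 in APOE2 and 3 in APOE4, of which 23 had at least 10% mitochondrial UMIs and 2 at least 6000 genes. The 25 were picked by Ctsk and Acp5, so high levels of both follow from the choice. Their summed profile held 15162 CPM of Ctsk, 13990 CPM of Acp5 and 21839 CPM of the nuclear respiratory list. It had a Pearson correlation of 0.977 with the label over log levels of genes, against 0.873 with the next name, Mø cluster 1. Among cells of other names 3, all Monocytic DCs of APOE2, also passed both minimums, at 1954 CPM of Ctsk. The libraries share 9 barcodes, none of them in the label.

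**Figure D4:**
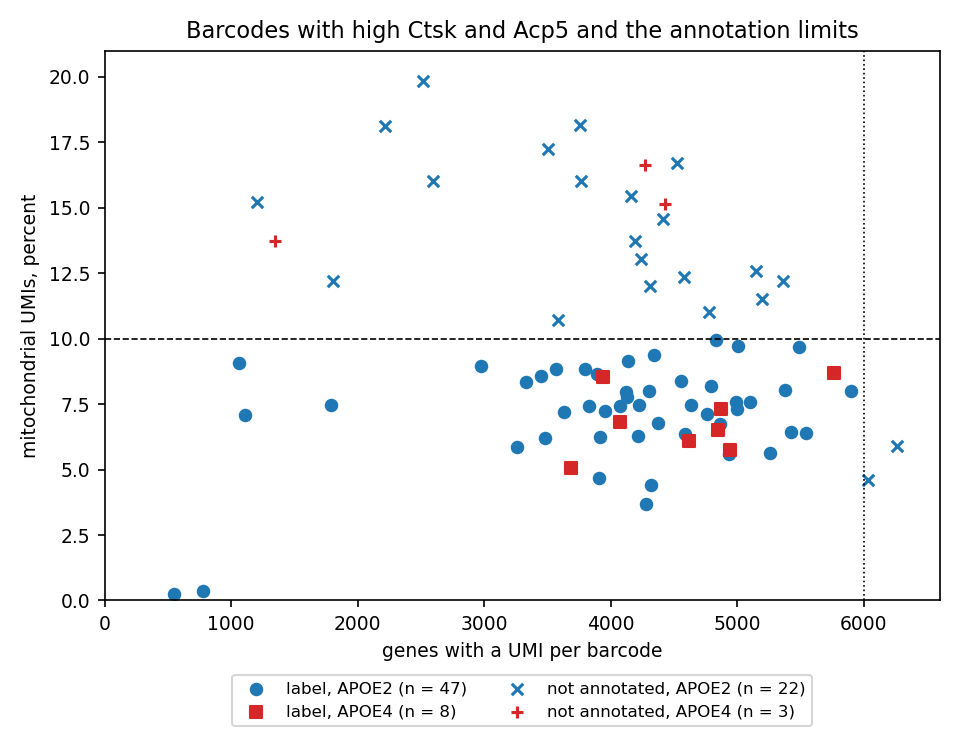
Genes with a UMI (horizontal) and percent of mitochondrial UMIs (vertical) for the 55 cells of the label and the 25 barcodes outside the annotation with at least 10 UMIs of Ctsk and of Acp5. The dashed line is 10% and the dotted line 6000 genes, and 23 of the 25 lie above the first and the other 2 to the right of the second.

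Set against whole profiles, the label was nearest to macrophage and cycling myeloid names, yet at a distance. Over 18954 genes, log2(CPM + 10) correlated best with Mø cluster 1 (Pearson 0.894), then Monocytic DCs (0.888), Mø cluster 2 (0.881) and Monocytes 1 (0.869). By comparison Mø clusters 1 and 2 correlated at 0.982 with each other. Only basophils, stromal cells and mast cells had a lower best correlation with any other name. Taken cell by cell, 44 of the 55 cells were closest to Monocytic DCs, the name with the next highest depth, and 9 to Mø cluster 1. In a space of 30 principal components, 97.2% of the 20 nearest cells of each, over all 55, had the same label. For 49 cells all 20 did. The name came from clustering the same expression data, so a high share was built in and supports nothing.

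The label was rarer in the APOE4 library. It held 1.01% [0.741, 1.34] of annotated cells in APOE2 and 0.149% [0.0642, 0.293] in APOE4, a ratio of 0.148 [0.0698, 0.312]. Among the 6 monocyte and macrophage names it held 2.71% and 0.514%, a ratio of 0.190 [0.0899, 0.3999]. The names nearest to it in profile also had fewer cells in APOE4 than in APOE2. Mø cluster 1 had 481 in APOE2 and 245 in APOE4, Monocytic DCs 233 and 120, and Mø cluster 2 398 and 161. Monocytes 2 and 3 had more in APOE4, at 206 and 526 and at 169 and 233. Counting every barcode with at least 10 UMIs of Ctsk and Acp5 together with the label, 72 of 5063 and 11 of 5689 barcodes, the ratio was 0.136 [0.0722, 0.256]. Among cells under 5% mitochondrial UMIs the label had 5 of 3484 cells in APOE2 and 0 of 4508 in APOE4. The same number of leukocytes was sorted from each mouse, per the labels, so these are shares of the sorted cells, and how many mice gave the 47 and the 8 cells is not known from the files.

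Within the label, interferon genes were higher in the APOE4 library, and Ctsk, Acp5 and Slc9b2 lower. Of the 25 leading genes 21 were lower in APOE4 and 4 (Slc18a1, Kazn, Adck3 and St18) higher, by any amount. The 25 were ranked on the pooled UMIs of the label, most of them from APOE2. That choice favours genes high in the APOE2 cells, so this count supports nothing. The comparison sums 999592 UMIs of 47 cells and 201206 UMIs of 8 cells, 1 value per library with no test. Of 5944 genes that reached 20 UMIs over the label, 368 (6.19%) were at least 2-fold higher in APOE4 and 538 (9.05%) at least 2-fold lower, with a median log2 ratio of 0.05. Type I interferons switch on antiviral genes, and of the 20 listed here 18 had enough UMIs, all 18 at least 2-fold higher. The list summed to 1256 CPM in APOE2 and 4339 CPM in APOE4, a ratio of 3.46 [3.17, 3.77].

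Single cells weighed heavily on those sums. One APOE2 cell at 25277 CPM held 73.9% of that library's interferon UMIs, and one APOE4 cell at 18061 CPM held 65.3%. The median cell was at 189 CPM in APOE2 and 2093 CPM in APOE4, and 3 of 47 and 5 of 8 cells reached 1000 CPM. Without the highest cell of each library the sums were 341 and 1786 CPM, a ratio of 5.24. Leaving out the APOE4 cell alone brought the log2 ratio from 1.79 to 0.51. Other cells of the libraries differed in the same direction, at 1687 and 5035 CPM.

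**Figure D5:**
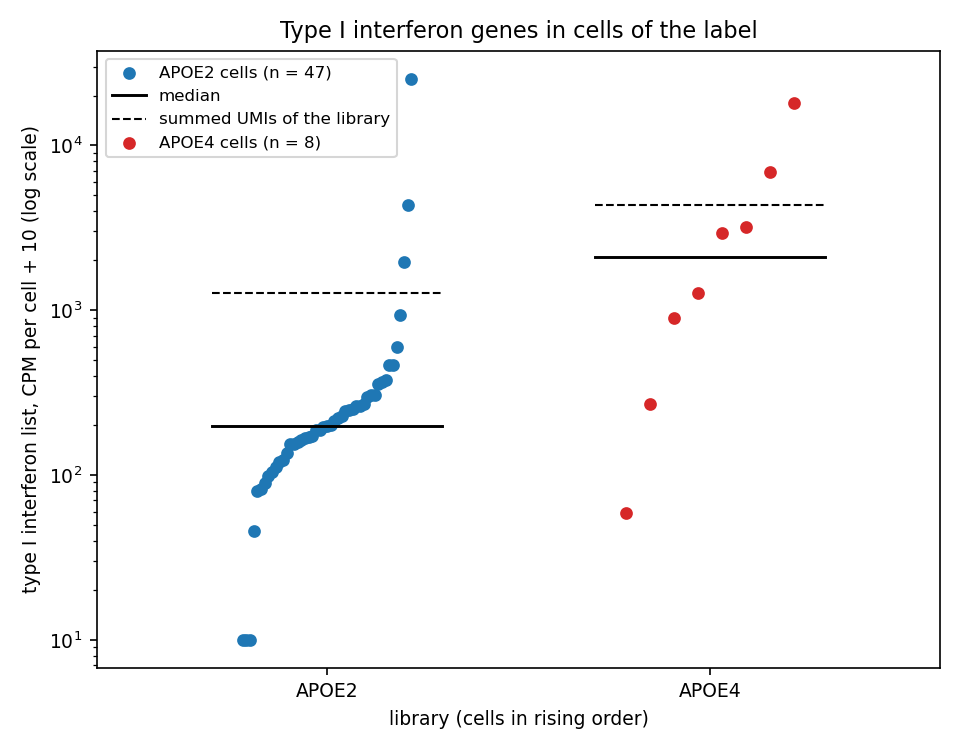
CPM of the 20 type I interferon genes summed per cell of the label, 10 added, on a log axis, in rising order within each library. The solid lines mark the medians (189 and 2093 CPM) and the dashed lines the libraries' summed UMIs (1256 and 4339 CPM), and the cells of the libraries overlap.

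MHC class I genes, which load peptides for display to CD8+ T cells, were also higher in APOE4, with 11 of 11 measured members above APOE2 and 7 at least 2-fold, beside 6.19% of all genes. In other cells of the same libraries the list was also higher in APOE4, at 7979 and 13257 CPM. In the label it had a ratio of 1.73 [1.63, 1.84], and its median cell was at 4148 CPM in APOE2 and 8285 CPM in APOE4. B2m was at 1155 and 2028 CPM and H2-K1 at 1043 and 1784 CPM. Ifitm3, an antiviral membrane protein, had the largest ratio by its bound, at 291 and 1441 CPM, 4.95-fold higher [4.19, 5.85]. It had a UMI in 32 of 47 and 7 of 8 cells, but 1 cell held 111 of its 291 UMIs in APOE2. In APOE4 1 cell held 128 of its 290 UMIs. Oasl2, an antiviral gene, was at 7.003 and 84.5 CPM, or 7 and 17 UMIs, and 10 of the 17 were in 1 cell. The same rule named 3 more genes. Of the chemokine Ccl5, 48 of 49 UMIs of APOE4 were in 1 cell, and all 25 UMIs of the protease Mmp12 were in the APOE4 cell with the high C1qa. Of Cybb, a subunit of the phagocyte oxidase, 12 of 25 UMIs were in that cell and 13 in 3 others, against 6 UMIs in APOE2.

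The osteoclast list summed to 42777 CPM in APOE2 and 28762 CPM in APOE4, a ratio of 0.672 [0.654, 0.691]. Of its 30 measured members 5 were at least 2-fold lower and 0 higher, beside 9.05% of all genes lower. The list was written after the leading genes were seen, and most UMIs behind those came from APOE2. Slc9b2 was at 822 and 373 CPM, Acp5 at 0.517 [0.487, 0.548] and Ctsk at 0.669 [0.637, 0.702] of its APOE2 level, with cells of the libraries overlapping for all 3 genes. The respiratory list was level, with a ratio of 1.01 [0.973, 1.04], and the V-ATPase genes had 0.844 [0.804, 0.886]. Mt3, at 290 and 34.8 CPM, had 8.34-fold less in APOE4 [3.996, 20.9], and Sbsn had 81 UMIs in APOE2 and 1 in APOE4. Of the 81, 22 were in the APOE2 cells with the high C1qa. Slc29a1, a nucleoside transporter, was at 219 and 29.8 CPM, with a UMI in 43 of 47 and 4 of 8 cells. Fcgrt, the neonatal Fc receptor, had 141 UMIs in 30 APOE2 cells and 1 UMI in APOE4. Aqp1, a water channel, had 55 UMIs in 10 APOE2 cells and 0 in APOE4. Of the 55, 24 were in the APOE2 cells with the high C1qa, and 1 cell held 22 of the 55.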

How the data were processed

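Leukocytes from tumours of 6 pooled mice per genotype gave 1 droplet library each, with 5063 (APOE2) and 5689 (APOE4) barcodes and 41207514 and 37349222 UMIs. Each deposited matrix gives un-normalized counts of UMIs, produced by the authors with Cell Ranger 3.0.1 per the file headers, on mm10 per the submitters' processing notes. Cell names and the percent of mitochondrial UMIs per cell come from the authors' deposited Seurat metadata (Seurat 3.0.2, per the submitters' processing notes; clustering resolution 0.8, per the file headers). How strand, overlapping genes and doublets were handled is not given in the sources used here, and no doublet caller was run.

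From these, UMIs were summed per name and library with Python 3.11.15, numpy 2.4.6, scipy 1.17.1 and pandas 2.3.3. CPM carries exact Poisson intervals, ratios exact conditional binomial intervals and shares exact Clopper-Pearson intervals (95%). PCR duplicates were collapsed by UMI, and intervals cover counting error only. Genes were counted past 4-fold at a mean of at least 50 CPM, and within the label past 2-fold at 20 UMIs or more. Where other cells had 0 UMIs, 3 counts over those cells served as the floor. No p-value is given, because each genotype has 1 library. List medians add 0.5 UMI and use members at 5 CPM or more on either side. The ratio script was tested on simulated data.

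Named are the 25 genes with the highest lower bound of the ratio to other cells, the 10 of highest CPM, the 10 with the highest bound against their highest other name, the 15 lowest among genes at 200 CPM or more elsewhere, the 5 highest and 5 lowest between genotypes, and list members. The members and lists were chosen with earlier results of these data known, and 3 lists (osteoclast, bone-forming cells and osteoclast-inducing ligands) were written after the leading genes were seen. Of the list members, 4 were not matched in the matrix. Gene positions are from GENCODE, which holds 27645 of the 27998 gene IDs, and promoters from RefSeq (GRCm38.p6). Alternatives were another scaling, equal weight per cell or per name, thinning to 1500 UMIs, single libraries, a 5% mitochondrial limit, other thresholds, and leaving out cells.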

Additional observations from a re-analysis of the deposited data

Results flagged for a closer look

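Outside the authors' annotation, 22 barcodes of the APOE2 library and 3 of the APOE4 library had at least 10 UMIs of Ctsk and Acp5. Only the count of the APOE2 library is above the limit of 3 counts that a count of 0 allows. The barcodes of both libraries enter none of the comparisons by name. With them and 3 Monocytic DCs of APOE2 that passed both minimums, the ratio of shares of all barcodes, APOE4 over APOE2, was 0.136. For the label alone it was 0.152 of all barcodes.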

How the results depend on the processing

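Over 24 leading genes (Pate4 has no ratio) and 11 alternatives, 250 of 264 ratios could be computed, and all 250 were at least 4-fold higher (lowest log2 ratio 4.20). The number of genes at least 4-fold higher was 204 with cells thinned to 1500 UMIs, 860 with no minimum CPM, 469 past 2-fold and 41 past 8-fold. The number lower was 8506 with no minimum, 633 past 2-fold and 225 past 8-fold. Log2 ratios of 3 lists to other cells kept their direction in every alternative run. The macrophage list was at -1.93 with size factors, -1.57 as a mean over cells, -1.71 thinned, -2.17 in APOE2, -1.88 in APOE4, -2.58 under 5% mitochondrial UMIs, -1.95 without the label cells with the most UMIs, -1.32 with equal weight per name, -1.95 without the cells low in Ctsk and -2.31 without those high in C1qa. The skin-resident list was at -2.66 as a mean over cells, -2.19 thinned, -3.87 in APOE2, -2.41 in APOE4, -2.44 with equal weight and -3.98 without the cells high in C1qa. The respiratory list was at 1.625 with size factors, 1.63 as a mean over cells, 1.525 thinned, 1.52 in APOE2, 1.585 in APOE4, 1.21 under 5% mitochondrial UMIs, 1.49 without the cells with the most UMIs, 1.67 with equal weight, 1.58 without the cells low in Ctsk and 1.59 without those high in C1qa. Some lists turned direction: neutrophil to -0.82 as a mean over cells, -0.40 thinned, -1.47 under 5% mitochondrial UMIs and -1.72 with equal weight; zinc transport to -0.10, -0.074 (APOE2), -0.29 (under 5%) and -0.035 (without the cells high in C1qa); epithelial junction to 1.20 thinned; proliferation to 0.024 in APOE4. The cause was not tested. With 100 added to CPM the highest correlation was 0.872, with Monocytic DCs. Between genotypes, 115 genes were higher and 167 lower at 50 UMIs or more, 699 and 1003 at 10 or more, and 32 and 65 after thinning, where fewer genes passed the minimum. Leaving out each APOE4 cell in turn gave 330 to 425 genes higher, 541 to 633 lower and an interferon log2 ratio of 0.51 to 2.11. The ratio of shares was 0.152 over all barcodes, 0.136 with the other barcodes that hold Ctsk and Acp5, and 0.141 with only the label cells that hold at least 10 UMIs of both. Under 5% mitochondrial UMIs the label had 0 cells in APOE4, and no ratio was computed. The median log2 ratio of all genes moved from -0.05 to 0.09 under the 5% mitochondrial limit. No paired analysis was possible because each genotype has 1 pooled library. The alternatives that leave out cells by Ctsk, C1qa or depth, and those that count other barcodes, were chosen after seeing the data. With 8 APOE4 cells, single cells set many of the differences between genotypes.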
